A study of Homo sapiens with 14 samples.

Results

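The genes of the integrated stress response and the unfolded protein response were followed in SH-EP cells, an adherent human line derived from a neuroblastoma. A list of 41 genes was matched by symbol to the Ensembl identifiers of the deposited count table, and all 41 were found among its 61533 genes. All 41 also passed the filter on low counts that left 16056 genes for testing. By role the list holds 7 transcription factors of the stress response, 12 genes known as targets of ATF4 or CHOP, 2 subunits of the phosphatase for the initiation factor eIF2, 4 sensors and mediators of stress in the endoplasmic reticulum (ER), 13 ER chaperones and folding enzymes, and 3 genes of ER-associated degradation.

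RNA with a polyA tail was sequenced from 2 lines of SH-EP cells that both carry n-Myc. The SPARK-ON line is a single clone in which n-Myc is joined to SPARK-ON, a tag that makes the protein condense into droplets when lenalidomide is added, and it was kept below the level at which n-Myc separates by itself. The other line expresses n-Myc without SPARK-ON and serves to show what lenalidomide does on its own. The 4 groups were the SPARK-ON line with lenalidomide (3 libraries), the SPARK-ON line with DMSO, the solvent (3), the n-Myc control line with lenalidomide (2) and the n-Myc control line with DMSO (3). The labels give no dose and no time. Because the SPARK-ON line is 1 clone, a difference between the lines cannot be told apart from a difference between clones, and the labels do not say that replicates came from separate cultures. The p-values therefore reflect the spread among these libraries, which may be technical.

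In the integrated stress response, kinases that sense stress phosphorylate eIF2, which slows translation in general and favours translation of ATF4. ATF4 then switches on genes for amino acid uptake and synthesis, for redox balance and, through CHOP (the product of DDIT3), for cell death. One of those kinases, PERK (EIF2AK3), belongs also to the unfolded protein response, in which IRE1 (ERN1) with XBP1 and ATF6 raise the chaperones and the degradation machinery of the ER. Amino acid supply is a known demand of cells driven by MYC proteins, which makes the ATF4 branch a familiar one in neuroblastoma.

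The promoters were searched for motifs known from these branches. They are taken from RefSeq on GRCh38.p14, from 250 bases before to 50 bases after each start, and 39 of the 41 genes matched (SLC7A11 and NUPR1 did not). The CARE motif bound by ATF4 with C/EBP partners (TGATGNAA, both strands) was found in 7 of the 19 matched stress response genes, in 1 of the 16 genes of ER folding and degradation, and in 4.46% of all 27305 genes with a promoter in the table (3.62% of 35116 promoters). The 7 were ASNS, ATF3, CEBPG, CHAC1, PPP1R15B, SLC3A2 and SLC7A1. DDIT4, VLDLR and PCK2, described below, had no CARE match in their windows. The ER stress element ERSE (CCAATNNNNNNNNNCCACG, both strands) lay in 6 of the 16 ER genes (CALR, CANX, CRELD2, HSP90B1, HSPA5 and PDIA6), in XBP1, in none of the 19 stress response genes, and in 0.0916% of all genes (0.0769% of promoters). Its short form ERSE-II (ATTGGNCCACG, both strands) was found in HERPUD1, HYOU1 and SDF2L1 and in 0.0696% of all genes (0.0541% of promoters). A match describes letters in a window and is not a measured binding site.

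Stretches around the motifs of some of these genes are printed 5′ to 3′ on the strand of the gene, with the motif in capitals. They set promoters with a CARE beside promoters with an ERSE or ERSE-II. The CHAC1 and ASNS stretches touch an annotated exon. The ERSE of HSPA5 lies in chr9:125241361-125241439 (minus strand), that of XBP1 in chr22:28800598-28800626 (minus) and that of CALR, in the reverse orientation, in chr19:12938359-12938432 (plus). HERPUD1 carries a reversed CARE and an ERSE-II in chr16:56931956-56932045 (plus). The CARE of CHAC1, reversed, lies in chr15:40953252-40953279 (plus), that of CEBPG in chr19:33374041-33374108 (plus) and that of ASNS in chr7:97872459-97872486 (minus).
HSPA5: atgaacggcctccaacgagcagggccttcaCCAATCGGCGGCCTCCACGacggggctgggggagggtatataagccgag
XBP1: gctggCCAATCGCGGAGGGCCACGaccgt
CALR: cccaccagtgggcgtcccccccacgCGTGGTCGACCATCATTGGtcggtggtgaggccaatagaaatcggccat
HERPUD1: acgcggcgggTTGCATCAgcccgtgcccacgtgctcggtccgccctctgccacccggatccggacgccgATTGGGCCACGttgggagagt
CHAC1: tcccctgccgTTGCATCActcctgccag
CEBPG: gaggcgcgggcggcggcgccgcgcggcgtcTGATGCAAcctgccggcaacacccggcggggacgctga
ASNS: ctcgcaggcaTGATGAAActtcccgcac

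**Figure D1:**
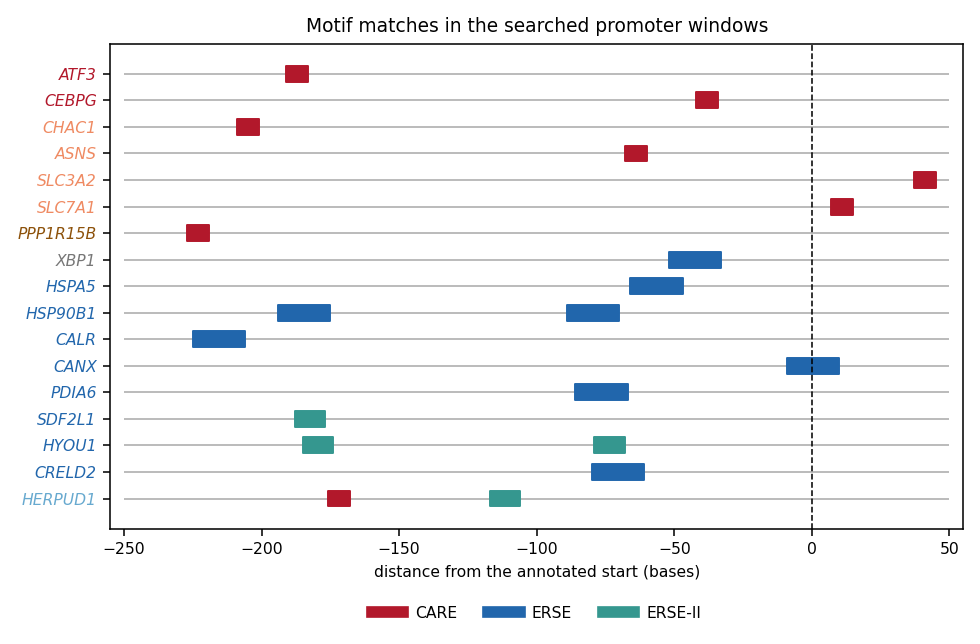
Positions of CARE, ERSE and ERSE-II matches (coloured blocks) against the annotated start (dashed line, x axis in bases) in 1 promoter window for each of the 17 genes with a match. CARE blocks sit in stress response genes and HERPUD1, and ERSE and ERSE-II blocks in ER genes and XBP1.

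Total counts ran from 6614671 in the third lenalidomide library of the SPARK-ON line to 21511684. Levels are given as CPM, the counts scaled to a common library size after correction by the TMM method, and 3 counts, taken as the detection floor, correspond to 0.143 to 0.441 CPM. MYCN, the gene for n-Myc, stood between 2089 and 2762 CPM in all 11 libraries, with overlap between the lines. Within the SPARK-ON line it was 2186 to 2398 CPM with DMSO and 2420 to 2618 CPM with lenalidomide, which do not overlap. All 9 mesenchymal markers of SH-EP cells were above 5 CPM in every library, while 8 of 10 markers of adrenergic neuroblastoma cells were below 3 CPM in every library, with PHOX2A, ISL1 and CHGA at 0 in all. The other 2, GATA2 and GATA3, stood at 10.4 to 25.5 and 4.74 to 8.73 CPM. The third lenalidomide library of the SPARK-ON line stood apart on the second principal component and the first DMSO library of the control line on the third; counts of members without both are given below.

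None of the 41 genes passed the test for lenalidomide in either line over the 11 libraries, whereas the lines differed in a share of them near that of all genes. In the SPARK-ON line 0 of 41 genes passed an adjusted p of 0.05 in edgeR's quasi-likelihood test over all 11 libraries. Of all genes, 0.0685% did. At an unadjusted p under 0.05 stood 1 of the 41, HSPA5, against 860 of all 16056 genes. In the control line 0 of 41 passed, against 0.0436% of all genes (0.0374% higher and 0.00623% lower). At an unadjusted p under 0.05 stood 1 of the 41, HSP90B1, against 774 of all 16056 genes. DESeq2 and limma-voom also called 0 in both lines. The log2 changes ran from -0.79 (NUPR1) to 0.34 (ATF3) in the SPARK-ON line, with a median of -0.004 and a median standard error (SE) of 0.093, and from -0.53 (NUPR1) to 0.29 (ASNS) in the control line.

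The gene nearest to a call was HSPA5, which encodes BiP, the main Hsp70 chaperone of the ER. Its levels in the SPARK-ON line were 757, 739.8 and 795 CPM with DMSO and 839.7, 807 and 856 CPM with lenalidomide, so the groups did not overlap. The log2 change was 0.13 ± 0.06 (SE) with an adjusted p of 0.924. In the control line HSPA5 stood at 859, 866 and 863 CPM with DMSO and at 833 and 891 CPM with lenalidomide. ATF4 mRNA in the SPARK-ON line was 269.7, 268 and 289 CPM with DMSO and 255, 244 and 258 CPM with lenalidomide, a log2 change of -0.13 ± 0.07 (SE) with an adjusted p of 0.964. ATF4 is controlled mainly at translation, which these libraries do not measure. PCK2, the mitochondrial enzyme that makes phosphoenolpyruvate, gave -0.26 ± 0.14 (SE) and ATF3, a stress-induced transcription factor, 0.34 ± 0.18 (SE), neither past the test.

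When the 6 SPARK-ON libraries were fitted by themselves, 1 of the 41 genes was called, against 2.6% of all genes. The biological coefficient of variation was 4.71% in that fit, 12.9% in a fit of the 5 control libraries and 9.40% over all 11. This was DDIT4, which encodes REDD1, an inhibitor of the growth kinase mTORC1. DDIT4 stood at 186, 175 and 218 CPM with DMSO and at 229.9, 205 and 229 CPM with lenalidomide, so that the groups overlapped. In that fit the log2 change was 0.19 ± 0.05 (SE) with an adjusted p of 0.0263, against 0.19 ± 0.11 (SE) and 0.948 over all 11 libraries. In the same 6-library fit 10 of the 41 genes were at an unadjusted p under 0.05, against 2108 of all 14652 genes. HSPA5 came to an adjusted p of 0.0632 and ATF4 to 0.0826. MYCN was called higher with lenalidomide in that fit, by 0.14 ± 0.04 (SE) on the log2 scale (adjusted p = 0.0233), but not over all 11 libraries (adjusted p = 0.969), and its part in the other calls of the fit was not tested. A fit of the 5 control libraries alone called 0 of 41, with 0 at an unadjusted p under 0.05. Of all 14666 genes in that fit, 295 were at an unadjusted p under 0.05 and none was called. No gene of the 41 was called for a difference between the lines in their response to lenalidomide, with DESeq2 and limma-voom at 0 too. By edgeR 0 of the 41 were at an unadjusted p under 0.05 there, against 669 of all 16056 genes. No gene at all was called in that comparison by edgeR.

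**Figure D2:**
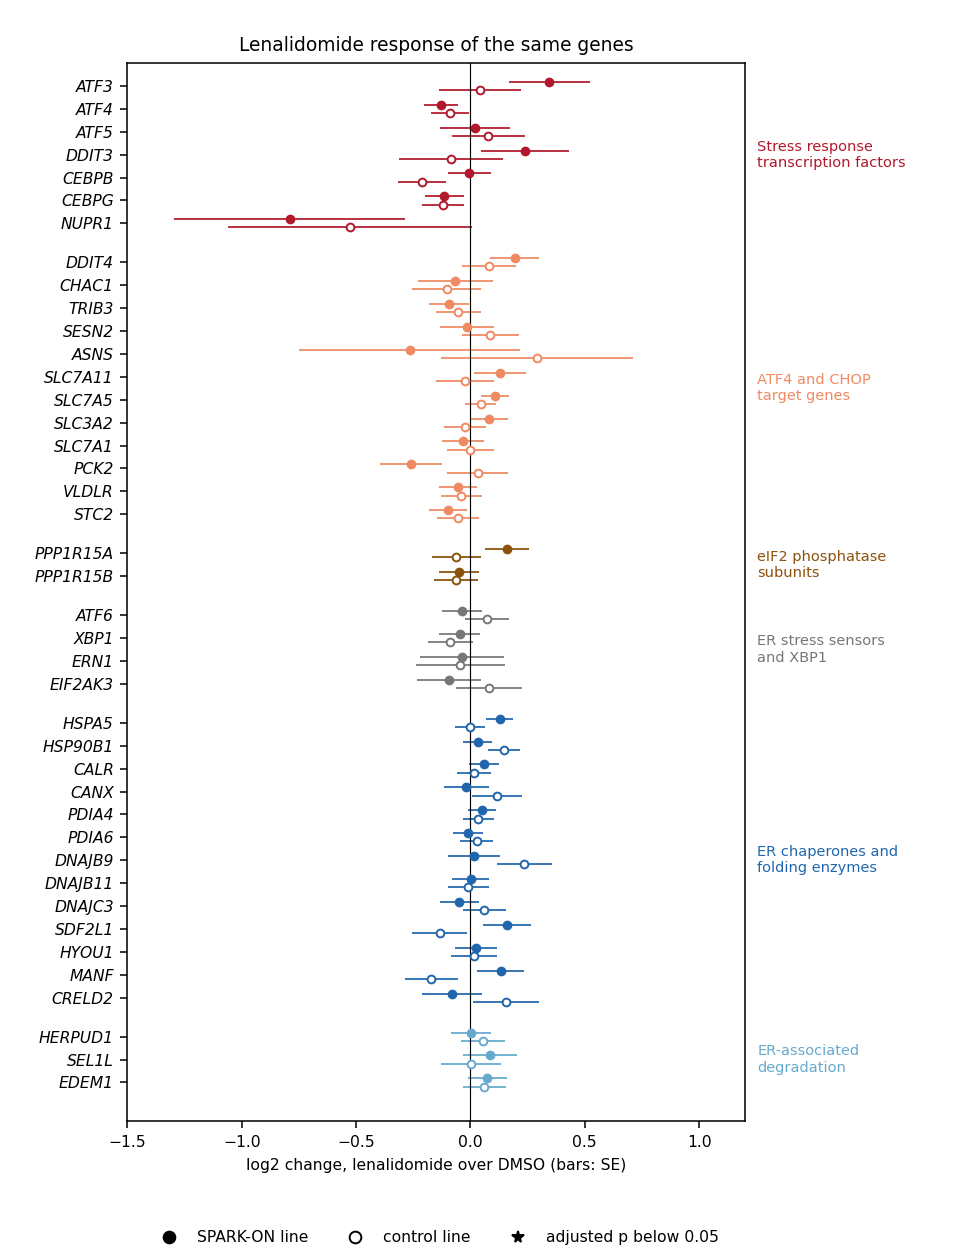
log2 change of each of the 41 genes with lenalidomide over DMSO (x axis; bars are SE) in the SPARK-ON line (filled, 3 libraries against 3) and the control line (open, 2 against 3), grouped by role. No gene passed the test in either line, and the widest bars belong to NUPR1 and ASNS, the genes with the fewest counts.

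The wider list of 41 ATF4 pathway genes, 39 of them tested, held no call for lenalidomide over all 11 libraries. In the 6-library SPARK-ON fit 2 of the 39 were higher and 4 lower with lenalidomide, against 1.79% and 0.805% of all genes. SQSTM1, the autophagy receptor p62, was higher by 0.15 ± 0.04 (SE) on the log2 scale (adjusted p = 0.00835), from 1609, 1629.8 and 1675 CPM with DMSO to 1894, 1782 and 1782 CPM. PSAT1, an enzyme of serine synthesis, fell by 0.20 ± 0.04 (SE) on the log2 scale (adjusted p = 0.00152), from 341, 336 and 348 CPM to 297, 296 and 306 CPM. The groups did not overlap for either gene. GADD45A, a growth arrest gene, was higher by 0.34 (adjusted p = 0.0096) and MTHFD2, of the mitochondrial folate cycle, was lower with a log2 change of -0.19 (adjusted p = 0.0129). In the same fit 1 of the 9 mesenchymal markers, FN1 (fibronectin), was called higher, by 0.31 ± 0.05 (SE, adjusted p = 5.86e-06), and none of the 3 adrenergic and 4 other markers tested was called. The part of FN1 was not tested.

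Between the lines, the stress response genes were split: CHAC1, DDIT4, VLDLR, CEBPG and PCK2 were 1.84-fold to 3.54-fold lower in the SPARK-ON line in DMSO, while the cystine transporter SLC7A11 with its partner SLC3A2, DDIT3 and PPP1R15A were higher. The ER chaperones differed less, with HSP90B1, CALR and DNAJB9 lower in the SPARK-ON line under both treatments. In DMSO 20 of 41 genes passed the test, 4 higher and 16 lower in the SPARK-ON line, against 41.6% of all genes (21.1% higher and 20.4% lower). With lenalidomide 20 passed, 6 higher and 14 lower, against 39.4% of all genes (19.7% in each direction). The share of members called, 48.8% in both, is therefore near that of all genes. The DMSO and the lenalidomide comparisons use different libraries of the same lines, but share the same model and its estimate of the spread. Called in both were 18 genes, all 18 in the same direction, 4 higher and 14 lower. The share of all genes called in both was not counted, so this agreement is not a result about the members.

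By branch, 14 of the 21 genes of stress response factors, targets and phosphatase subunits passed in DMSO (4 higher and 10 lower), 2 of the 4 sensors (both lower), and 4 of the 16 genes of ER folding and degradation (all lower). With lenalidomide the counts were 13 of 21 (4 higher and 9 lower), 2 of 4 (lower) and 5 of 16 (2 higher and 3 lower). The median size of the log2 difference in DMSO was 0.39 over the stress response genes and 0.14 over the ER genes, beside 0.34 over all genes tested. With scaling to library size alone, which moves the median of all genes up by 0.09 in DMSO and by 0.11 with lenalidomide, the ER genes gave 2 higher and 2 lower calls in DMSO, while the stress response genes gave 4 higher and 9 lower. Over all 41 genes that scaling gave 6 higher and 12 lower in DMSO, and over all genes 62.6% of calls were higher, against 50.9% with TMM. Fits of only the 2 groups compared called 18 members in DMSO (4 higher and 14 lower), against 40.1% of all genes (20.1% higher and 19.9% lower), and 21 with lenalidomide, against 44.5% of all genes. Without the 2 libraries that stood apart, 22 of 41 were called in DMSO and 20 with lenalidomide. Of all 15837 genes in that fit, 3364 were higher and 3449 lower in DMSO, and 3402 and 3446 with lenalidomide.

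Some markers of cell state also differed between the lines. The 9 mesenchymal markers summed to 1541 to 1749 CPM in the SPARK-ON libraries and to 2923 to 3020 CPM in the control libraries. Most of that sum was VIM and CD44. In DMSO 3 of the 9 (CD44, VIM and WWTR1) were lower and 1 (FN1) higher in the SPARK-ON line. That share of 44.4% is near the 41.6% of all genes. The 10 adrenergic markers summed to 26.3 to 32.3 and 18.6 to 20.5 CPM, mostly GATA2, with 3 of the 10 at 0 in all libraries. The filter was passed by 3. Of these, GATA2 and HAND2 were called higher in the SPARK-ON line in DMSO, where 21.1% of all genes were. HAND2 stood at only 0 to 1.33 CPM, near the detection floor. It passed the filter only through SPARK-ON libraries, since each control library had 0 to 3 reads. Its call could therefore hardly have gone the other way and is not used as support. The 12 markers of other cell types summed to 27.1 to 34.9 and 17.7 to 21.9 CPM, mostly MBP, with 4 of the 12 at 0 and 1 of 4 tested (MBP) higher. The part of these markers in the differences between the lines was not tested.

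**Figure D3:**
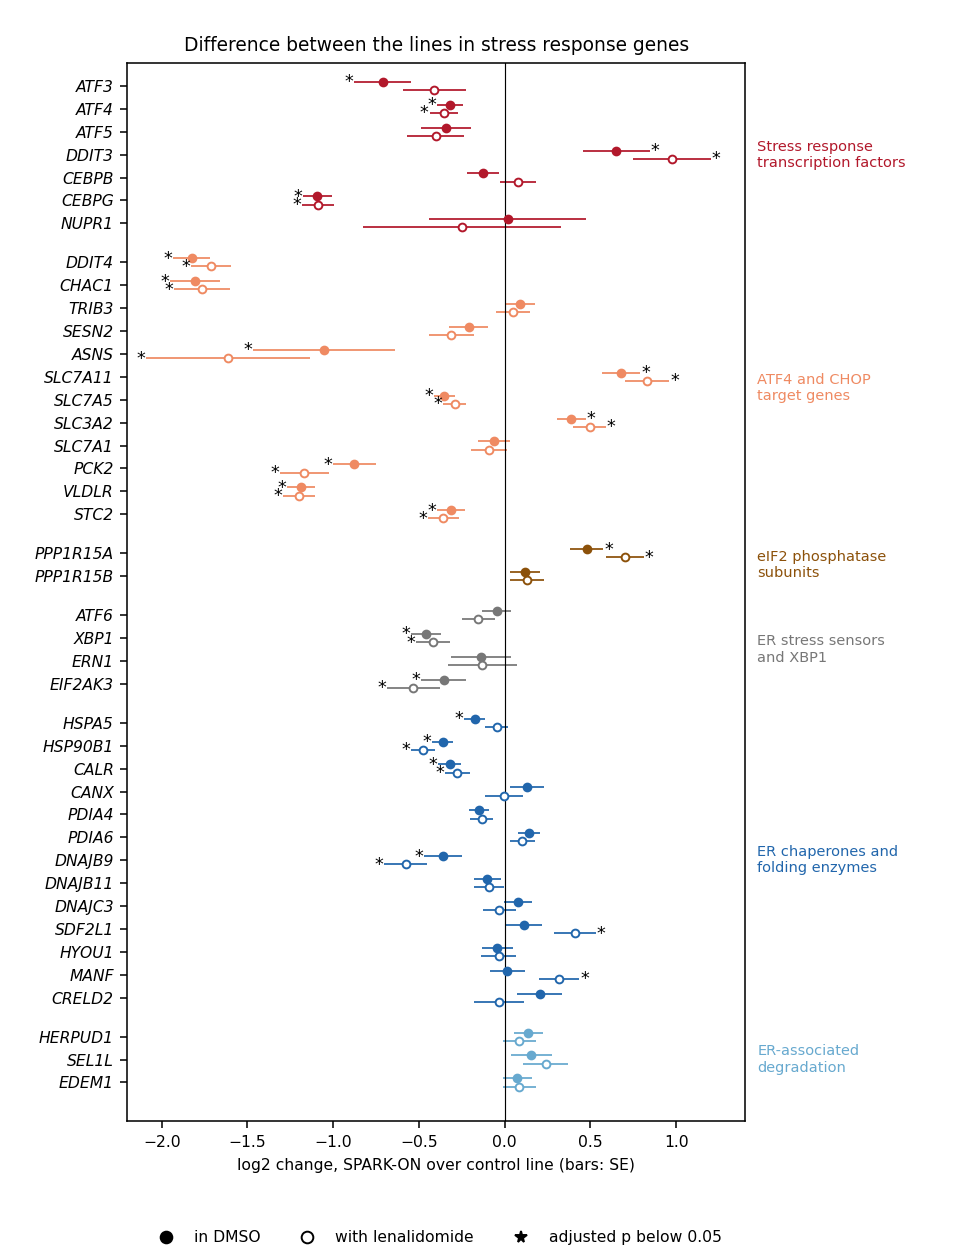
log2 difference of each of the 41 genes, SPARK-ON over control line (x axis; bars are SE), in DMSO (filled, 3 libraries against 3) and with lenalidomide (open, 3 against 2); asterisks mark an adjusted p below 0.05. Stress response genes reach from -1.82 to 0.97, while the ER chaperone and degradation genes stay between -0.58 and 0.41.

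Among the transcription factors, CEBPG, a partner of ATF4 on CARE sites, differed most. Its level in the SPARK-ON line was 63.3, 59.1 and 68.2 CPM with DMSO and 54.6, 56.8 and 66.0 CPM with lenalidomide. In the control line it was 134, 140.4 and 133 CPM with DMSO and 119.8 and 129.8 CPM with lenalidomide. Every SPARK-ON library was below every control library, and the log2 difference was -1.09 ± 0.08 (SE) in DMSO (adjusted p = 6.69e-09) and -1.09 ± 0.09 with lenalidomide (adjusted p = 4.06e-08). ATF4 itself stood at 378, 323 and 329.8 CPM in the control line with DMSO and at 306 and 340.1 CPM with lenalidomide, above the SPARK-ON values given earlier in all libraries. The log2 difference was -0.32 ± 0.07 (SE) in DMSO (adjusted p = 0.00199) and -0.36 ± 0.08 with lenalidomide (adjusted p = 0.00212).

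DDIT3, which encodes the pro-apoptotic factor CHOP, went the other way. It was at 11.1, 11.5 and 13.7 CPM with DMSO and at 14.8, 15.3 and 12.4 CPM with lenalidomide in the SPARK-ON line. The control line had 10.2, 5.06 and 7.79 CPM with DMSO and 6.13 and 8.35 CPM with lenalidomide. The lines did not overlap, though the highest control library came close, and the log2 difference was 0.65 ± 0.20 (SE) in DMSO (adjusted p = 0.0121) and 0.97 ± 0.23 with lenalidomide (adjusted p = 0.0022). In DMSO the call was lost without the third SPARK-ON library (adjusted p = 0.0662) or without the second control library, where the value was 0.43 (adjusted p = 0.054). On the opposite strand, 27.2% of its exon bases are covered by MARS1 (MARS in GENCODE 29), whose highest level was 221 CPM, and no source used here says whether counting used strand.

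ATF3, induced by many stresses, stood at 7.44, 5.61 and 6.08 CPM in the SPARK-ON line and at 10.5, 11.8 and 9.17 CPM in the control line with DMSO (log2 difference -0.71 ± 0.17 SE, adjusted p = 0.00216). With lenalidomide the difference was -0.41 ± 0.19 (SE) and did not pass (adjusted p = 0.0914), and the test of the change between the treatments gave 0.30 ± 0.25 (adjusted p = 1), so the comparisons are not shown to differ. CEBPB, ATF5 and NUPR1 were not called in either comparison. ATF5, an ATF4 relative that favours mitochondrial protein quality, has 21.2% of its exon bases opposite NUP62, and NUPR1 did not exceed 1.74 CPM in any library.

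The targets of ATF4 and CHOP held the largest differences. CHAC1 degrades glutathione and is a classic CHOP pathway target. In the SPARK-ON line it was measured at 10.02, 10.6 and 13.5 CPM with DMSO and at 10.2, 10.6 and 12.5 CPM with lenalidomide. The control line gave 48.8, 36.9 and 34.3 CPM with DMSO and 34.0 and 40.3 CPM with lenalidomide. CHAC1 was thus 3.49-fold lower in the SPARK-ON line in DMSO (log2 -1.80 ± 0.15 SE, adjusted p = 1.29e-08) and 3.40-fold lower with lenalidomide (adjusted p = 1.11e-07).

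DDIT4 had 776, 628 and 651 CPM in the control line with DMSO and 623 and 827 CPM with lenalidomide, far above the 175 to 229.9 CPM of the SPARK-ON libraries. It was 3.54-fold lower in the SPARK-ON line in DMSO (log2 -1.82 ± 0.11 SE, adjusted p = 2.18e-10) and 3.28-fold lower with lenalidomide (adjusted p = 1.9e-09). An antisense gene, DDIT4-AS1, covers 41.2% of its exon bases, and its own level was not analysed here. VLDLR, a lipoprotein receptor induced by ATF4, stood at 57.1, 58.7 and 63.2 CPM in the SPARK-ON line and at 126, 142 and 139 CPM in the control line with DMSO. With lenalidomide it stood at 59.0, 55.4 and 58.2 CPM and at 142 and 122 CPM. VLDLR was 2.28-fold lower in DMSO (log2 -1.19 ± 0.08 SE, adjusted p = 1.63e-09) and 2.30-fold lower with lenalidomide (adjusted p = 7.23e-09), with no overlap between the lines.

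PCK2 was at 13.3, 12.3 and 13.6 CPM in the SPARK-ON line and at 25.8, 20.6 and 25.6 CPM in the control line with DMSO. With lenalidomide the values were 11.7, 9.48 and 11.9 CPM against 22.5 and 26.6 CPM. The lines stood clear of each other, with log2 differences of -0.88 ± 0.12 (SE, adjusted p = 1.55e-05) and -1.17 ± 0.14 (SE, adjusted p = 3.31e-06). STC2, a secreted stanniocalcin of the stress response, was lower by less, with log2 differences of -0.31 ± 0.08 and -0.36 ± 0.09 (SE). STC2 with lenalidomide lost its call without the first control lenalidomide library (adjusted p = 0.0565).

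ASNS, which makes asparagine and is a standard ATF4 target, was barely counted here, with 6 to 38 reads per library and 0.363 to 2.06 CPM. Of its exon bases, 44.6% are shared on the same strand with the transcript AC079781.5, and no source used here says how reads in shared bases were handled. Its log2 difference was -1.05 ± 0.41 (SE) in DMSO (adjusted p = 0.0491) and -1.61 ± 0.48 with lenalidomide (adjusted p = 0.0122). The DMSO call was lost in 14 of 18 alternatives, among them DESeq2 (adjusted p = 0.0958), limma-voom (0.0519), RLE scaling (0.0503) and leaving out the first control DMSO library (0.18), and is not a firm one. The call with lenalidomide was lost without the first SPARK-ON library (adjusted p = 0.0703) or the first control library (adjusted p = 0.0586).

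The amino acid transporters did not move as a block. SLC7A11 imports cystine in exchange for glutamate, SLC7A5 (LAT1) imports large neutral amino acids, and both pair with the heavy chain SLC3A2. SLC7A11 was at 265, 265 and 273 CPM with DMSO and at 283, 291 and 304 CPM with lenalidomide in the SPARK-ON line. In the control line it was at 129, 191 and 181 CPM with DMSO and at 184 and 145 CPM with lenalidomide. Every SPARK-ON library was above every control library, and SLC7A11 was 1.60-fold higher in DMSO (log2 0.68 ± 0.11 SE, adjusted p = 9.07e-05) and 1.78-fold higher with lenalidomide (adjusted p = 5.2e-05).

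SLC3A2 stood at 617, 638 and 665 CPM with DMSO and at 694, 668 and 671 CPM with lenalidomide in the SPARK-ON line, and at 552, 452 and 463 CPM and at 433 and 528 CPM in the control line. The log2 difference was 0.39 ± 0.08 (SE, adjusted p = 0.00101) in DMSO and 0.49 ± 0.09 (SE, adjusted p = 0.000388) with lenalidomide. SLC7A5 was lower instead, at 852, 845 and 887 CPM against 1063, 1109 and 1127 CPM in DMSO (log2 -0.35 ± 0.06 SE, adjusted p = 0.000135) and lower by a similar size with lenalidomide (log2 -0.29 ± 0.07 SE, adjusted p = 0.00222). Per kilobase of exon, the level of SLC3A2 over that of SLC7A5 was 0.660 to 0.692 in the 6 SPARK-ON libraries and 0.366 to 0.476 in the 5 control libraries, so the ratios did not overlap. That of SLC3A2 over SLC7A11 was 4.11 to 4.56 and 4.40 to 7.95, which overlap. SLC7A1, the cationic amino acid transporter, was not called, and nor were TRIB3, a pseudokinase that dampens the ATF4 pathway, and SESN2, a leucine sensor. Though not called, SESN2 was lower in every SPARK-ON library (13.9 to 15.5 CPM against 16.0 to 20.3 CPM).

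Of the eIF2 phosphatase subunits, PPP1R15A (GADD34), the stress-induced one, was higher in the SPARK-ON line, and PPP1R15B (CReP), the constitutive one, was not called. PPP1R15A stood at 42.8, 42.5 and 50.7 CPM with DMSO and at 50.4, 51.3 and 50.4 CPM with lenalidomide in the SPARK-ON line. The control line had 35.3, 31.2 and 31.2 CPM with DMSO and 28.8 and 33.5 CPM with lenalidomide. The lines did not overlap, with log2 differences of 0.48 ± 0.10 (SE, adjusted p = 0.000539) and 0.70 ± 0.11 (SE, adjusted p = 5.88e-05).

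**Figure D4:**
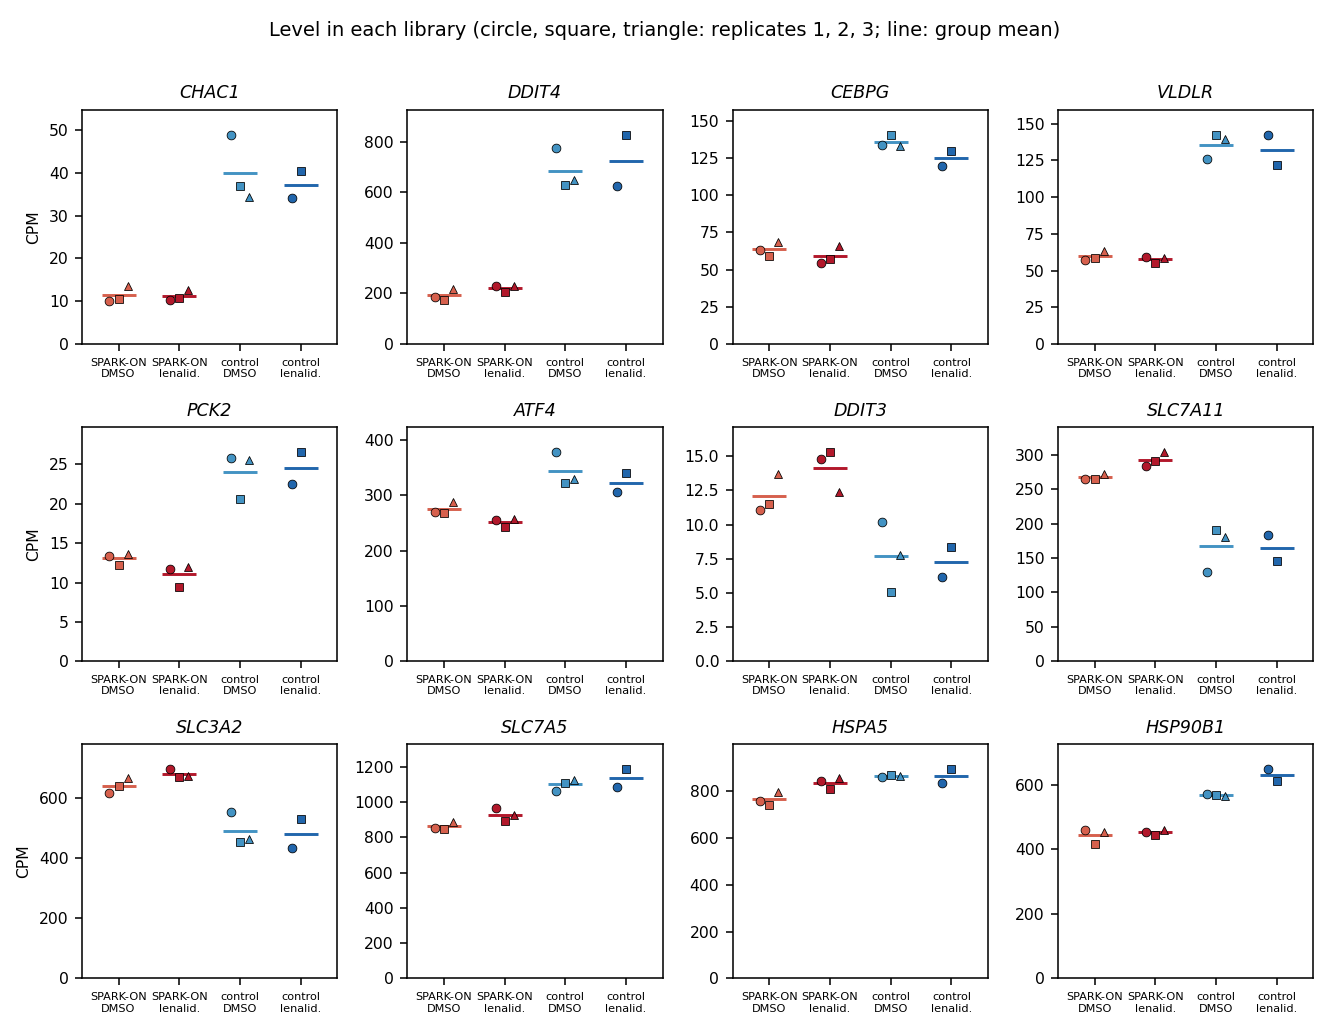
CPM (y axis from 0) of 12 genes in each of the 11 libraries, by group (x axis), with the group mean as a line. CHAC1, DDIT4, CEBPG, VLDLR and PCK2 are lower in all 6 SPARK-ON libraries, DDIT3, SLC7A11 and SLC3A2 are higher, and HSPA5 overlaps between the lines.

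Of the sensors, XBP1 and EIF2AK3 were lower in the SPARK-ON line and ATF6 and ERN1 were not called. XBP1 encodes the factor whose mRNA IRE1 splices, and gene counts do not tell the spliced from the unspliced form. It stood at 70.3, 60.2 and 72.8 CPM with DMSO and at 65.1, 62.0 and 70.7 CPM with lenalidomide in the SPARK-ON line. Control libraries had 99.6, 90.1 and 89.6 CPM with DMSO and 83.5 and 91.7 CPM with lenalidomide. The lines were separate, with log2 differences of -0.46 ± 0.09 (SE, adjusted p = 0.000371) and -0.42 ± 0.10 (SE, adjusted p = 0.00251). EIF2AK3 differed by -0.36 ± 0.13 (SE, adjusted p = 0.0399) in DMSO and by -0.53 ± 0.15 (SE, adjusted p = 0.00972) with lenalidomide. The EIF2AK3 call in DMSO held in only 7 of 18 alternatives and is not a firm one. Among others, it was lost with DESeq2 (adjusted p = 0.0888), library size alone (0.121), no expression filter (0.0704), only the groups compared (0.0533) and the replicate block (0.0544). It was also lost without any of 4 single libraries, replicates 2 and 3 of each line (adjusted p from 0.0671 to 0.167). With lenalidomide the EIF2AK3 call was lost without the second library of either line (adjusted p = 0.0597 and 0.0569).

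Among the ER chaperones, HSP90B1 (GRP94), the Hsp90 of the ER, differed most clearly. It stood at 459.5, 417 and 452 CPM with DMSO and at 454, 444 and 461 CPM with lenalidomide in the SPARK-ON line. Control values were 572, 568 and 566 CPM with DMSO and 647 and 612 CPM with lenalidomide. All SPARK-ON libraries were lower, with log2 differences of -0.36 ± 0.06 (SE, adjusted p = 0.000121) and -0.48 ± 0.07 (SE, adjusted p = 2.29e-05).

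CALR, calreticulin, a calcium-binding lectin chaperone, was at 560.5, 552 and 586 CPM in the SPARK-ON line and at 749.8, 686 and 687 CPM in the control line with DMSO. With lenalidomide CALR was at 595, 587 and 588 CPM and at 670.5 and 759 CPM. The log2 differences were -0.32 ± 0.07 (SE, adjusted p = 0.000657) and -0.28 ± 0.07 (SE, adjusted p = 0.00563), the second lost without the second control lenalidomide library (adjusted p = 0.0893). DNAJB9 (ERdj4), a co-chaperone that holds IRE1 in check, was lower by log2 -0.36 ± 0.11 and -0.58 ± 0.12 (SE). Its call in DMSO was lost with library-size scaling (adjusted p = 0.0663) and without any of 3 single libraries, replicates 1 and 3 of the SPARK-ON line and replicate 2 of the control line (adjusted p from 0.0529 to 0.0746).

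HSPA5 passed in DMSO by a small margin (log2 -0.18 ± 0.06 SE, adjusted p = 0.0241) and not with lenalidomide (log2 -0.05 ± 0.07 SE, adjusted p = 0.614). With library-size scaling its DMSO difference was -0.08 (adjusted p = 0.231), and the call was also lost without the first or second SPARK-ON or the third control library (adjusted p from 0.0548 to 0.11). SDF2L1, a BiP cofactor, and MANF, a secreted ER stress factor, passed with lenalidomide only, at log2 0.41 ± 0.12 (adjusted p = 0.0115) and 0.32 ± 0.12 (SE, adjusted p = 0.0381). Without the first control lenalidomide library neither passed (SDF2L1 adjusted p = 0.12, MANF 0.433), and the MANF difference became 0.14. MANF was also lost without the first or the second SPARK-ON lenalidomide library (adjusted p = 0.101 for each) and with the replicate block (0.08). The tests of a change between treatments gave 0.29 ± 0.16 for SDF2L1 and 0.30 ± 0.16 for MANF (SE, adjusted p = 1 for both).

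The other chaperones and folding enzymes (CANX, PDIA4, PDIA6, DNAJB11, DNAJC3, HYOU1 and CRELD2) were not called, with log2 differences between -0.15 and 0.20 in DMSO. Though not called, PDIA4 was lower in every SPARK-ON library (278 to 300 CPM against 307 to 325 CPM). PDIA6 was higher in every one (200 to 210 CPM against 181 to 198 CPM). None of the degradation genes was called. HERPUD1, a scaffold of the ER ubiquitin ligase complex that bears both motif types, stood at 74.9, 73.0 and 74.9 CPM in the SPARK-ON line and at 75.5, 64.4 and 62.6 CPM in the control line with DMSO. SEL1L, the adaptor of the ligase HRD1, and EDEM1, which hands misfolded glycoproteins to degradation, had log2 differences of 0.16 ± 0.12 and 0.07 ± 0.08 (SE).

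Counting separation instead of calls, 4 of the 21 stress response genes were above and 11 below in every SPARK-ON library, against 1 and 4 of the 16 ER genes and 0 and 2 of the 4 sensors. Over all genes tested the lines were separate in 37.2% (18.6% above and 18.5% below). Summed over the list, stress response genes reached 3061 to 3311 CPM in the SPARK-ON line and 3661 to 4077 CPM in the control line. DDIT4 alone gave 175 to 229.9 CPM and 623 to 827 CPM of these sums, so it makes up much of the gap. The ER genes reached 3932 to 4220 CPM and 4107 to 4479 CPM, which overlap. Per kilobase of exon, CALR, HSPA5 and SLC7A5 had the highest medians over the 11 libraries, at 219, 215 and 203 CPM per kilobase, and their ranges overlapped.

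**Figure D5:**
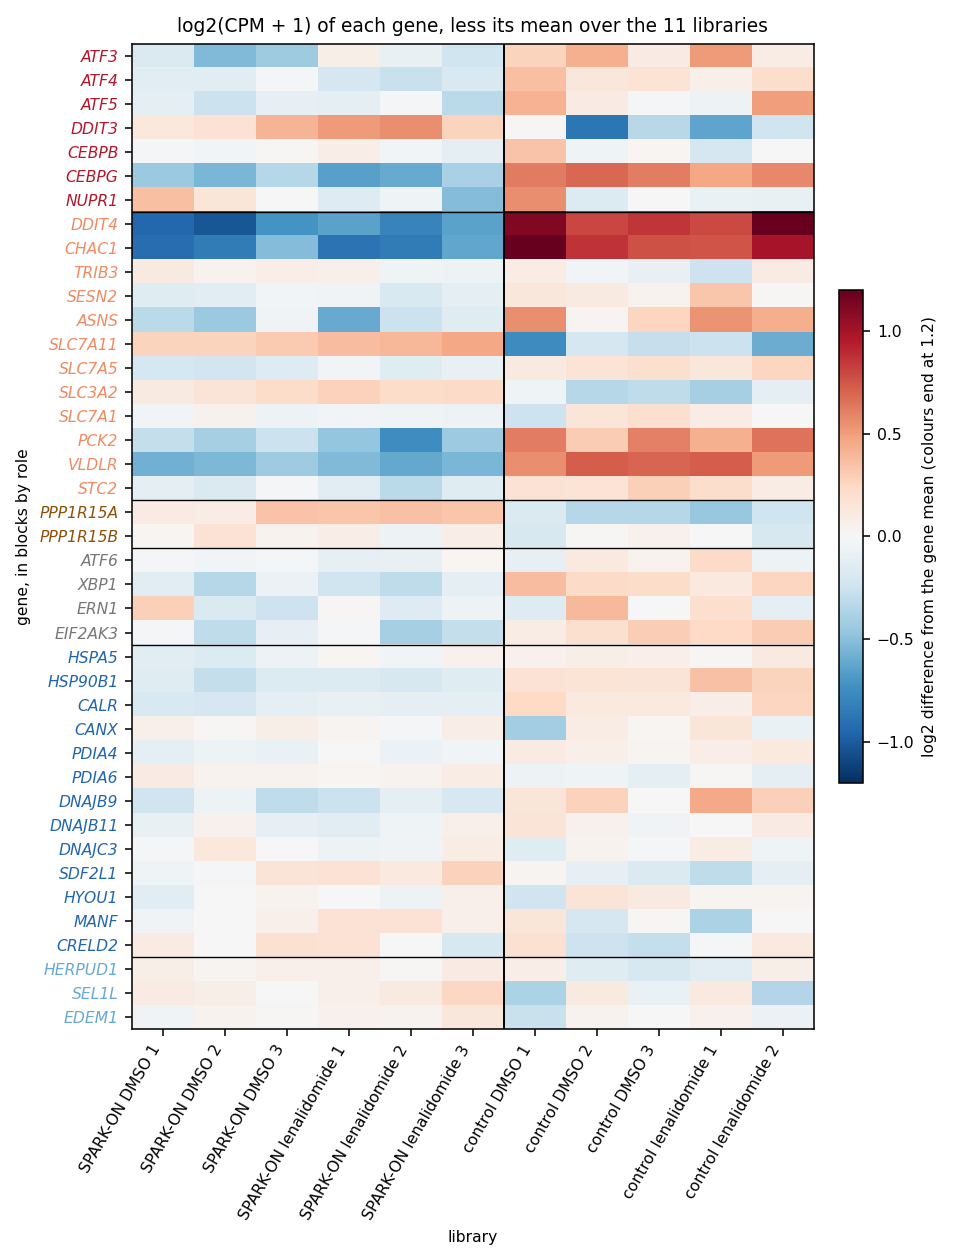
log2(CPM + 1) of the 41 genes (rows, in blocks by role) in the 11 libraries (columns), less the gene's mean over the libraries; red is above and blue below the mean. DDIT4 and CHAC1 have the strongest colours, the ER blocks are pale, and the vertical line divides the SPARK-ON from the control libraries.

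The wider lists around these branches give the same comparisons for more genes, to be read against the 41.6% of all genes called between the lines in DMSO. Of the 11 eIF2 kinase and eIF2 subunit genes 4 were lower in the SPARK-ON line in DMSO and none higher, namely EIF2AK1 (HRI, the heme-regulated kinase, log2 -0.45), EIF2S3 (-0.37), EIF2AK4 (GCN2, -0.32) and EIF2S2 (-0.20), a share of 36.4%. Of the 39 tested ATF4 pathway genes 4 were higher and 16 lower, a share of 51.3%. SQSTM1 was higher by log2 2.04 ± 0.06 (SE, adjusted p = 2.1e-14), at 1609 to 1675 CPM against 394 to 409 CPM. GDF15, a secreted stress cytokine, was higher by 1.53 ± 0.11, while VEGFA, the vascular growth factor, and NARS1, the asparaginyl-tRNA synthetase, were lower (log2 -1.66 ± 0.07 and -1.25 ± 0.06, SE).

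Of 32 tested further ER folding genes 2 were higher (WFS1, log2 0.93, and TXNDC5, 0.90) and 13 lower, among them KDELR2, a retrieval receptor for ER proteins (-0.53), and PDIA5 (-0.85). Of 20 further degradation genes 6 were higher and 3 lower, with NPLOC4 (0.53), VCP (0.43) and DERL2 (0.66), all of the machinery that pulls proteins out of the ER, among those higher. Of 10 tested regulators of the unfolded protein response 4 were higher, led by CREB3L1 (1.04), and 3 lower, led by NFE2L2 (-0.35). The shares called were 46.9% of the folding, 45.0% of the degradation and 70.0% of the regulator genes, the last over only 10 genes. With lenalidomide, where 39.4% of all genes were called, the counts of higher and lower calls were 0 and 4, 4 and 20, 1 and 14, 6 and 4, and 3 and 3 for the lists in the same order.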

How the data were processed

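PolyA RNA of 11 SH-EP libraries in 4 groups was analysed, grouped by the labels. The deposited values are raw read counts per gene; FastQC, fastp, HTSeq, edgeR and build hg38 are named in the submitters' processing notes, and the aligner, the annotation and the strand setting are not given in the sources used here. 3 further columns, whose names match no label, were not used, so the comparisons with unmodified SH-EP cells were not made. Symbols were taken from GENCODE 29 and gene tables by Ensembl identifier, and 61369 of 61533 identifiers matched. The members and lists were chosen with earlier results of these data known, and 1 marker is not reported here.

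Genes were filtered with filterByExpr (minimum count 10), scaled by TMM and tested with edgeR 4.0.16 (quasi-likelihood F-test, two-sided, 1 model of the 4 groups, 7 residual degrees of freedom, Benjamini-Hochberg adjustment over 16056 genes, threshold 0.05) in R 4.3.3; alternatives used DESeq2 1.42.0 and limma 3.58.1. A fit of only the groups compared, other scalings and filters, a replicate block and leaving out each library were tried. The SE is the log2 change divided by the square root of F. The code was tested on simulated data. The SE covers the spread among these libraries as well as counting error, while the detection floors rest on counts only. All members could be named, with full statistics for those called and for the 3 of each role with the smallest p; of wider lists, up to 4 called genes were named. Replicate numbers showed no pairing: same-numbered libraries, within and between lines, correlated between -0.182 and 0.0372 in their deviations from the group means. The control lenalidomide group has 2 libraries, whose deviations mirror each other, so the check says little there. The highest correlation, 0.182, was between the second control lenalidomide and the first control DMSO library.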

Additional observations from a re-analysis of the deposited data

How the results depend on the processing

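In DMSO between 17 and 24 members, and with lenalidomide between 18 and 21, were called between the lines when each library was left out in turn; other scalings, filters, tools and an adjusted p below 0.01 gave 15 to 21 of the members in DMSO and 17 to 21 with lenalidomide. None of the members' differences followed through these alternatives changed sign. With each library left out in turn, 2854 to 3433 of all genes tested were higher and 2716 to 3494 lower in DMSO. With lenalidomide 2471 to 2865 were higher and 2584 to 2804 lower, of 15962 to 17433 tested. The other scalings, filters and tools called 3052 to 4262 of all genes higher and 2547 to 3269 lower in DMSO. With lenalidomide those settings gave 2909 to 4045 higher and 2396 to 3221 lower, of 13020 to 33507 tested. The share of all genes at an adjusted p below 0.01 was not counted. For lenalidomide the only count that moved was under the fit of only the groups compared, with 1 member and 6 wider ATF4 pathway genes called in the SPARK-ON line; the cause was not tested. In DMSO the eIF2 kinase list gave 2 calls under library size alone and 2 at an adjusted p below 0.01, the ER folding list 9 under library size alone and the regulator list 4 at an adjusted p below 0.01. Library size alone called 4262 of all 16056 genes higher and 2547 lower there. With the replicate number as a block 18 members were called in DMSO and 19 with lenalidomide, and none for lenalidomide itself. Of all 16056 genes, that block left 3116 higher and 2965 lower in DMSO and 2850 and 2795 with lenalidomide. A block nested within line, chosen after seeing the data, left 7 and 10 calls, with fewer residual degrees of freedom. Among all 16056 genes it left 1593 higher and 1529 lower in DMSO and 1773 and 1603 with lenalidomide, so the member counts are near the share of all genes. The planned comparisons with unmodified SH-EP cells were not run. Few counts limit ASNS and NUPR1.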

Other observations

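In the control line the first DMSO and the second lenalidomide library stood together in several members, whichever treatment they had. CANX was at 747 and 939 CPM there and at 1012 to 1101 CPM in the other 3 control libraries, SEL1L at 80.0 and 81.7 against 98.8 to 113 CPM, and SLC7A11 at 129 and 145 against 181 to 191 CPM. DDIT4 and SLC3A2 were higher in the same libraries, at 776 and 827 against 623 to 651 CPM and at 552 and 528 against 433 to 463 CPM. These members were picked after their values were seen, and nothing was tested. Over all genes tested, the same libraries also lay on one side of the third principal component, apart from the other control libraries.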
